A study of Mus musculus with 14 samples.

Results

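S100 proteins are small calcium-binding proteins with a pair of EF hands, the loops that hold the calcium ion. Most act as dimers that open on calcium binding and take hold of partner proteins inside the cell, and some are also released and bind receptors on other cells. The genes lie mostly side by side in 1 cluster of the genome. S100a8 and S100a9 are best known as the most abundant cytosolic proteins of neutrophils, whereas S100a4, S100a6, S100a10 and S100a11 are known in T cells from activated and memory stages. The 8 genes described here are S100a1, S100a4, S100a6, S100a8, S100a9, S100a10, S100a11 and S100a13, out of 46946 genes in the deposited count table. They were chosen from a table of levels over these same libraries, so that their own levels are given as a description and carry no test. All 8 passed the filter on low counts, as did 17087 genes in all.

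RNA-seq counts came from the thymus of 14 mice of a C57BL/6;CBA strain, 10 of them from models of T-cell acute lymphoblastic leukaemia (T-ALL) driven by the oncogene Lmo2. Rosa26-Lmo2+Sca1-Cre mice (n = 3, 9 months) carry an Lmo2 cDNA in the Rosa26 locus that is silent until Cre acts, and Sca1-driven Cre opens it in blood stem and progenitor cells and for good in their progeny. Sca1-Lmo2 mice (n = 4, 7 to 8 months) carry an Lmo2 cDNA directly behind the Sca1 promoter, which was meant to restrict it to stem and progenitor cells, although thymic T cells of these mice were mosaic for it. Rosa26-Lmo2+Mb1-Cre mice (n = 2, 20 months) and a lone mouse of 22 months with Rosa26-Lmo2+Aid-Cre carry the same Rosa26 allele, opened from the pro-B cell stage by Mb1-Cre and in germinal centre B cells by Aid-Cre. Wild-type (WT) mice (n = 4, 4 months) gave healthy thymus, and the single Rosa26-Lmo2+Aid-Cre library enters no test. The comparisons ask how the genes differ between each model and WT, and between the pair of models that use the Sca1 promoter. The controls were younger than the mice of every model, so genotype and age cannot be told apart.

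Total counts per library lay between 42985130 and 47667663, and all levels below are CPM, a share of the library's counts scaled with the TMM method. Lmo2 itself averaged 8.11 ± 2.17 CPM (SD) in the Rosa26-Lmo2+Sca1-Cre libraries and 12.6 ± 3.45 CPM in those of Sca1-Lmo2. It averaged 5.47 ± 2.14 CPM for Rosa26-Lmo2+Mb1-Cre and was at 22.2 CPM for Rosa26-Lmo2+Aid-Cre, against 3.14 ± 1.15 CPM in WT. Every Sca1-Lmo2 library (10.19 to 17.57 CPM) was above every Rosa26-Lmo2+Sca1-Cre library (5.83 to 10.14 CPM), so that Lmo2 RNA in these libraries was not lower in the model meant to restrict it. The groups nearly touched, at 10.19 and 10.14 CPM, and 9.66% of all genes were apart in this direction. The study reported loss of Lmo2 in Sca1-Lmo2 tumours by immunohistochemistry, and in sorted leukaemic cells by Western blot and real-time PCR. By flow cytometry the study also found tumour T cells negative for TdTomato, the marker of the transgene, in all Sca1-Lmo2 mice so examined. It found Lmo2 still mosaic in T cells outside the tumour. The counts here do not tell which cells held the RNA. Replicates 1 and 2 of Rosa26-Lmo2+Sca1-Cre had the highest share of counts on 4 nuclear copies of mitochondrial sequence, 8.57% and 9.35%, against 2.43 to 3.69% in WT. Rosa26-Lmo2+Aid-Cre was at 6.13% and Rosa26-Lmo2+Mb1-Cre at 4.315 and 4.684%, also above WT. Replicate 3 of Rosa26-Lmo2+Sca1-Cre had 1.21 counts per kb on long genes silent in blood cells, against 0.3 to 0.604 in all the others. The summed level of 12 thymocyte markers was 3510 to 7890 CPM in the 10 tumour libraries, against 10700 to 12600 CPM in the 4 WT libraries. The labels give whole frozen thymus as the source, whereas the study's methods speak of blast cells from the models, and which of these holds bears on every marker value below. In bulk RNA, fewer cells of a type and less RNA per cell cannot be told apart.

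The 8 genes lie on chromosome 3 (mm10/GRCm38) in 2 blocks. The first block holds 6 of them, S100a1, S100a13, S100a4, S100a6, S100a8 and S100a9 in this order, within 185 kb (chr3:90511034-90695721). S100a11 and S100a10 follow after a gap of 2825 kb, within 44.2 kb (chr3:93520488-93564643). RefSeq promoters (GRCm38.p6, 250 bases before to 50 after the annotated start) were found for 7 of the 8, S100a10 being the exception. They were searched on both strands for the TATA box TATAAA, for CCAAT and for TTNNGNAA, a core bound by C/EBP factors, the C/EBP family being known for its part in granulocyte development. TATAAA was present in 13.6% of 32851 mouse promoters of 300 bases, CCAAT in 37.4% and TTNNGNAA in 40.7%. Among the members, TATAAA occurred in S100a4, S100a8 and S100a9, TTNNGNAA in S100a8 (1 match) and S100a9 (2 matches), and CCAAT in S100a6 only. The 3 promoters with a TATA box are shown first because S100a8 and S100a9 moved together below and differed from S100a4; capitals mark TATAAA and TTNNGNAA. Coordinates are chr3:90668821-90669120 (plus strand) for S100a8, chr3:90695672-90695971 (minus strand) for S100a9 and chr3:90603520-90603819 (plus strand) for S100a4.
S100a8: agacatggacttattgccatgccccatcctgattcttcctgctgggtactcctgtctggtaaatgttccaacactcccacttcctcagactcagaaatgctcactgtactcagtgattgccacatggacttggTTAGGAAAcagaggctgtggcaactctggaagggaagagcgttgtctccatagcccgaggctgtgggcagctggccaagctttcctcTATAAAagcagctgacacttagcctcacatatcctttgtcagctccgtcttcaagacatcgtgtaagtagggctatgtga
S100a9: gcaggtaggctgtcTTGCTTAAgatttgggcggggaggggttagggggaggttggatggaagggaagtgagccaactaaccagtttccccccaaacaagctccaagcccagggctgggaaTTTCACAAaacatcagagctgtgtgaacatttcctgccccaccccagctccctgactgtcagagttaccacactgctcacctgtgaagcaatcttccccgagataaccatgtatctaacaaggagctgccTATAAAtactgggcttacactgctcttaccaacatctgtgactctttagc
S100a4: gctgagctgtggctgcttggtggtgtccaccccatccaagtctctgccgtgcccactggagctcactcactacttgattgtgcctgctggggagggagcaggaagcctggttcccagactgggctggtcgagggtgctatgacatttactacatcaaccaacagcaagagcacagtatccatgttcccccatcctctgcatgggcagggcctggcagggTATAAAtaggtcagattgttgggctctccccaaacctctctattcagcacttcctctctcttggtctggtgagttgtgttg
In S100a8 the TATA box begins 30 bases before the annotated start and in S100a4 31 bases before it, whereas in S100a9 it begins at the annotated start itself. The TTNNGNAA matches lie 117 bases before the start in S100a8, and 236 and 130 bases before it in S100a9. S100a1 and S100a13 are transcribed away from each other from RefSeq starts 105 bases apart (90514330 and 90514435). Their promoter windows share 204 of 300 bases. The gene spans printed in this report can differ from the RefSeq starts, and that of S100a1 ends at 90514392. The S100a13 window (chr3:90514185-90514484, plus strand) is shown because it holds most of both promoters, and it has none of the 3 motifs.
S100a13: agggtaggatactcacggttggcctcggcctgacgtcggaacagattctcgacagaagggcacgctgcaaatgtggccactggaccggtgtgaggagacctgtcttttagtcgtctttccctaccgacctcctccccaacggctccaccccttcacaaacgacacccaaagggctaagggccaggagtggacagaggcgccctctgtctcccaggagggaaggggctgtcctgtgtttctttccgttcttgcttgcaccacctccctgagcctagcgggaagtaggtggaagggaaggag
A match here is a string of letters and not a measured binding site.

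S100a8 and S100a9 encode the subunits of calprotectin, an antimicrobial metal-binding dimer that neutrophils and monocytes release and that signals through Tlr4 and the receptor Ager. Both were on average highest in Rosa26-Lmo2+Sca1-Cre and lowest in Rosa26-Lmo2+Mb1-Cre, with a span over the 14 libraries from 20 to 26116 counts for S100a8 and from 18 to 31271 for S100a9. S100a8 (chr3:90668978-90670035, 694 exon bases) was at 13.5, 55.1 and 522 CPM in Rosa26-Lmo2+Sca1-Cre, against 7.47, 7.03, 1.16 and 1.91 CPM in WT. All 3 libraries were above all 4 of WT, and replicate 3 held far more than the others. The fitted log2 fold change was 5.49 ± 1.13 (SE), or 44.8-fold, and 2.97 without Rosa26-Lmo2+Sca1-Cre replicate 3. S100a9 (chr3:90692632-90695721, 522 exon bases) followed the same order, at 19.4, 46.6 and 625 CPM in Rosa26-Lmo2+Sca1-Cre, against 11.2, 9.53, 2.29 and 2.56 CPM in WT. Its log2 fold change was 5.17 ± 1.07, and 2.37 without replicate 3 of the model.

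In Sca1-Lmo2, S100a8 was at 7.03, 14.3, 12.6 and 6.91 CPM and S100a9 at 13.1, 21.5, 19.0 and 9.07 CPM, ranges that overlapped those of WT for both genes. The log2 fold changes against WT were 1.22 for S100a8 and 1.29 for S100a9. Rosa26-Lmo2+Mb1-Cre went the other way for S100a9, with 0.417 and 1.23 CPM, both below the lowest WT library (log2 fold change -2.97 ± 1.32, with -3.93 without replicate 2 and -2.37 without replicate 1). S100a8 was at 0.463 CPM there in replicate 1, below all of WT, and at 2.58 CPM in replicate 2, within the WT range. Its log2 fold change was -1.54 ± 1.25, with -3.23 without replicate 2 of that model and -0.76 without replicate 1. These libraries held 20 and 86 counts of S100a8 and 18 and 41 of S100a9. Reads expected by chance from the density on silent genes would give up to 10.4% of the S100a9 counts there. The Rosa26-Lmo2+Aid-Cre library had 11.8 CPM of S100a8 and 18.7 CPM of S100a9, inside the Sca1-Lmo2 range. Set against Rosa26-Lmo2+Sca1-Cre, Sca1-Lmo2 was lower by log2 fold changes of -4.27 ± 1.07 for S100a8 and -3.88 ± 1.01 for S100a9, with overlapping libraries. Without Rosa26-Lmo2+Sca1-Cre replicate 3 these values were -1.75 and -1.08.

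**Figure D1:**
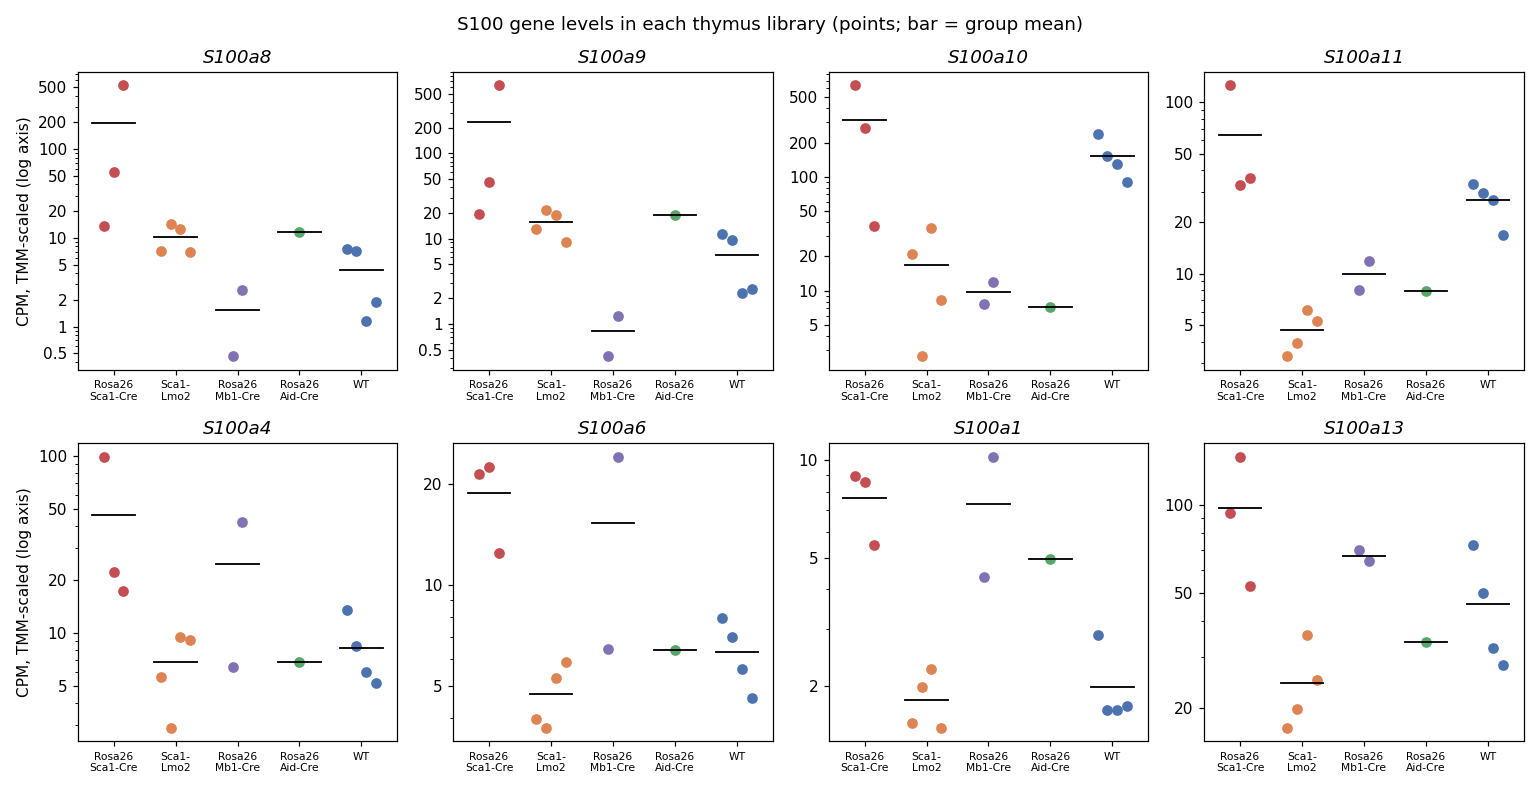
Each panel plots 1 gene as CPM (TMM-scaled, log axis) against model, with a point for each of the 14 libraries and a bar at the group mean. S100a8 and S100a9 peak at 522 and 625 CPM in 1 Rosa26-Lmo2+Sca1-Cre library, while S100a10 and S100a11 are lower in Sca1-Lmo2 and Rosa26-Lmo2+Mb1-Cre than in every WT library.

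The 2 subunits tracked each other across the study. Pearson's r of their log2 CPM was 0.98 over 14 libraries and 0.96 without Rosa26-Lmo2+Sca1-Cre replicate 3, as a description over libraries that share genotype groups. The ratio of S100a9 to S100a8 CPM stayed between 0.477 and 1.98. Of the genes outside the 8, Camp was the closest to both, with r = 0.992 for S100a9 (0.985 without that library) and 0.961 for S100a8 (0.921). Camp encodes the cathelicidin of neutrophil granules. It was at 2.03, 4.7 and 149 CPM in Rosa26-Lmo2+Sca1-Cre, at 1.3 to 3.91 CPM in Sca1-Lmo2 and at 0 and 0.06 CPM in Rosa26-Lmo2+Mb1-Cre, against 1.82, 1.25, 0.265 and 0.341 CPM in WT. Ngp (r = 0.943 with S100a9) and Lcn2 (r = 0.909 with S100a8), both granule proteins of neutrophil precursors, were also among the 3 closest genes, together with Wfdc21 (r = 0.95 with S100a8 and 0.89 with S100a9).

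**Figure D2:**
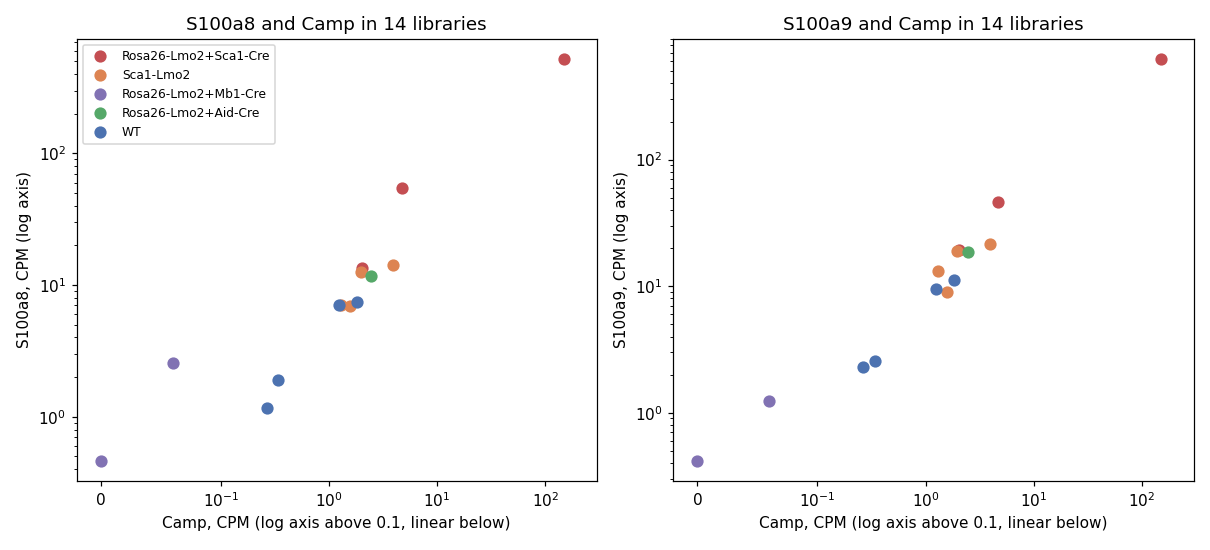
The level of S100a8 (left) and S100a9 (right) in CPM on a log axis is plotted against Camp in CPM (log axis above 0.1, linear below), with 1 point per library coloured by model. Rosa26-Lmo2+Sca1-Cre replicate 3 has the most of all 3 genes (Camp at 149 CPM), and both Rosa26-Lmo2+Mb1-Cre libraries have the least Camp (0 and 0.06 CPM).

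Neutrophil markers as a list were read beside these values. Of 20 markers, 14 passed the filter, and 12 of the 14 rose in Rosa26-Lmo2+Sca1-Cre against WT by edgeR's quasi-likelihood test with Benjamini-Hochberg adjustment, with a median log2 fold change of 4.66, against 0.06 over all genes. Over all 17087 genes, 16.5% rose and 10.4% fell in this comparison. Examples are Hp (haptoglobin, log2 fold change 5.02, adjusted p = 0.00557), Lcn2 (5.73, adjusted p = 0.00909) and Mpo (myeloperoxidase, 4.29, adjusted p = 0.00998). Some markers passed the filter on tumour libraries alone, among them Elane, Prtn3 and Mpo, which reached at most 0.218, 0.437 and 0.814 CPM in WT. With no filter on low counts, 18 of 20 rose and the median was 4.49. Leaving out Rosa26-Lmo2+Sca1-Cre replicate 3, 6 of the 12 markers still testable rose and the median was 2.15, and leaving out WT replicate 3 or WT replicate 4, 7 of 14 rose. With the replicate number added to the fit as a block, 4 of the 13 markers still testable rose. The summed list stood at 199, 60.9 and 716 CPM in Rosa26-Lmo2+Sca1-Cre, at 45.1 to 93.3 CPM for Sca1-Lmo2, at 18.1 and 196 CPM for Rosa26-Lmo2+Mb1-Cre and at 41.6 CPM for Rosa26-Lmo2+Aid-Cre, against 8.09 to 17.8 CPM in WT. The high sums of Rosa26-Lmo2+Sca1-Cre replicate 1 and Rosa26-Lmo2+Mb1-Cre replicate 2 were mostly Chil3 (151 and 168 CPM), a chitinase-like protein that macrophages also make. A sum of the 4 granule genes Camp, Ngp, Lcn2 and Ltf, put together after seeing these values, was 6.04, 19.6 and 476 CPM in Rosa26-Lmo2+Sca1-Cre, 8.82 to 25.5 in Sca1-Lmo2 and 2.2 and 2.37 in Rosa26-Lmo2+Mb1-Cre, against 1.72 to 7.17 CPM in WT. Whether neutrophils in the tissue supplied the S100a8 and S100a9 reads was not tested.

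S100a10 (also known as p11) forms a tetramer with annexin A2 that anchors proteins at the plasma membrane, and S100a11 binds annexin A1. Both were lower than in every WT library in all libraries of Sca1-Lmo2, of Rosa26-Lmo2+Mb1-Cre and of Rosa26-Lmo2+Aid-Cre, and reached their highest values in Rosa26-Lmo2+Sca1-Cre. S100a10 (chr3:93555080-93564643, 1212 exon bases) was at 20.9, 2.65, 35.8 and 8.20 CPM in Sca1-Lmo2, against 239, 151, 130 and 90.1 CPM in WT. The fitted log2 fold change was -3.17 ± 0.84, a level 9.03-fold lower, and it lay between -3.85 (without Sca1-Lmo2 replicate 3) and -2.82 (without Sca1-Lmo2 replicate 2) over 16 alternative settings. In Rosa26-Lmo2+Mb1-Cre, S100a10 was at 7.64 and 12.0 CPM, with a log2 fold change of -3.95 ± 1.18 against WT, and in Rosa26-Lmo2+Aid-Cre it was at 7.19 CPM. The lowest WT library thus held 90.1 CPM and the highest of these 7 tumour libraries 35.8 CPM. In Rosa26-Lmo2+Sca1-Cre the 3 libraries were spread over 17.0-fold, at 635, 268 and 37.3 CPM, and overlapped WT. The log2 fold change of 1.04 ± 0.83 became 0.01 without replicate 1 of the model.

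S100a11 (chr3:93520488-93526287, 511 exon bases) was at 3.30, 3.93, 6.16 and 5.27 CPM in Sca1-Lmo2, against 33.4, 29.6, 27.04 and 16.9 CPM in WT. The libraries of these groups did not overlap, and the log2 fold change was -2.52 ± 0.43, with 16 alternative settings between -2.71 and -2.38. Rosa26-Lmo2+Mb1-Cre held 8.01 and 11.9 CPM (log2 fold change -1.43 ± 0.53) and Rosa26-Lmo2+Aid-Cre 7.90 CPM. Rosa26-Lmo2+Sca1-Cre held 125, 32.8 and 36.1 CPM, of which replicates 1 and 3 were above all of WT. Its log2 fold change was 1.28 ± 0.44, and 0.37 without replicate 1. Set against Rosa26-Lmo2+Sca1-Cre, all Sca1-Lmo2 libraries were lower, with log2 fold changes of -4.21 ± 0.90 for S100a10 and -3.79 ± 0.47 for S100a11. Without Rosa26-Lmo2+Sca1-Cre replicate 1 these were -3.18 and -2.89, and S100a10 was at -4.89 without Sca1-Lmo2 replicate 3. The 2 genes had r = 0.85 over 14 libraries. The closest other genes were Ocel1 (r = 0.951), Gcnt4 (0.904) and Timd4 (0.882) for S100a10, and Sult1a1 (0.951), Nbl1 (0.937) and Npdc1 (0.928) for S100a11.

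S100a4 is a mediator of cell motility that binds non-muscle myosin, and S100a6 binds the calcyclin-binding protein Cacybp. Both were higher in all Rosa26-Lmo2+Sca1-Cre libraries than in all WT libraries, and in 1 of the 2 Rosa26-Lmo2+Mb1-Cre libraries. S100a4 (chr3:90603771-90606045, 584 exon bases) was at 99.0, 22.2 and 17.2 CPM in Rosa26-Lmo2+Sca1-Cre, against 13.4, 8.42, 5.99 and 5.19 CPM in WT. The log2 fold change was 2.48 ± 0.72, and 1.26 without replicate 1 of the model. S100a4 shares reads with the overlapping predicted gene Gm42674, whose counts were 0.743 to 0.877 times its own, so that its values are uncertain in size. It was at 5.60, 2.92, 9.53 and 9.15 CPM in Sca1-Lmo2, overlapping WT (log2 fold change -0.28 ± 0.66). Rosa26-Lmo2+Mb1-Cre held 6.39 CPM in replicate 1 and 42.5 CPM in replicate 2, and the log2 fold change of 1.57 ± 0.77 became -0.36 without replicate 2 and 2.37 without replicate 1. Rosa26-Lmo2+Aid-Cre held 6.84 CPM.

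S100a6 (chr3:90612882-90624181, 1367 exon bases) was at 21.4, 22.5 and 12.4 CPM in Rosa26-Lmo2+Sca1-Cre, against 7.95, 6.99, 5.59 and 4.60 CPM in WT, a log2 fold change of 1.58 ± 0.41. In Sca1-Lmo2 it was at 3.97, 3.75, 5.25 and 5.89 CPM, overlapping WT. Rosa26-Lmo2+Mb1-Cre again split into 6.44 and 24.1 CPM, with a log2 fold change of 1.28 ± 0.45 that became 0.04 without replicate 2 and 1.94 without replicate 1, and Rosa26-Lmo2+Aid-Cre held 6.38 CPM. All Sca1-Lmo2 libraries were below all Rosa26-Lmo2+Sca1-Cre libraries for both genes, with log2 fold changes of -2.76 ± 0.73 for S100a4 (-1.54 without Rosa26-Lmo2+Sca1-Cre replicate 1) and -1.99 ± 0.41 for S100a6. The pair S100a4 and S100a6 had r = 0.91 over 14 libraries. The closest genes outside the 8 were Serpinb6a (r = 0.935), Bend6 (0.934) and Snupn (0.933) for S100a4, and Cst3 (0.962) and copies of the small nucleolar RNA U3 (0.959) for S100a6. Summed U3 counts were 253, 434 and 54.0 CPM in Rosa26-Lmo2+Sca1-Cre and 13 and 145 CPM in Rosa26-Lmo2+Mb1-Cre, against 2.65 to 21.6 CPM in WT, and so were high in the same libraries as S100a6. A bearing of library composition on S100a6 was not tested.

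S100a1 is known from muscle, where it regulates the calcium release channel Ryr1 and the calcium pump Atp2a2, and S100a13 takes part in the release of Fgf1 and Il1a, secreted factors that lack a signal peptide. S100a1 (chr3:90511034-90514392, 694 exon bases) was at 8.92, 8.57 and 5.46 CPM in Rosa26-Lmo2+Sca1-Cre, against 2.88, 1.69, 1.69 and 1.74 CPM in WT. The groups did not overlap and the log2 fold change was 1.93 ± 0.39, between 1.49 and 2.16 over 14 alternative settings. It was at 4.35 and 10.2 CPM in Rosa26-Lmo2+Mb1-Cre, also above all of WT, with a log2 fold change of 1.87 ± 0.42 that became 1.13 without replicate 2. Rosa26-Lmo2+Aid-Cre held 4.94 CPM, whereas the 1.54, 1.99, 2.26 and 1.49 CPM of Sca1-Lmo2 overlapped WT. All 6 libraries with the Rosa26 allele were thus above all 8 libraries without it for this gene. The 6 came from mice of 9 to 22 months and the 8 from mice of 4 to 8 months, so allele and age cannot be told apart. The share of all genes with such a split was not counted, and nothing is read from it. Its level was low throughout, at 71 to 342 counts per library. The closest genes were Zc3h7a (r = 0.943), Csf1r (0.93) and Chrna1 (0.93), of which Csf1r encodes the main growth factor receptor of macrophages.

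S100a13 (chr3:90514435-90524581, 715 exon bases), its neighbour across the shared promoter region, was at 93.7, 147 and 52.8 CPM in Rosa26-Lmo2+Sca1-Cre, against 72.9, 49.7, 32.2 and 28.1 CPM in WT. Replicates 1 and 2 of the model were above all of WT and replicate 3 was not (log2 fold change 1.10 ± 0.39). Sca1-Lmo2 held 17.2, 19.8, 35.6 and 25.1 CPM, of which 3 libraries were below all of WT (log2 fold change -0.90 ± 0.37). Rosa26-Lmo2+Mb1-Cre held 69.8 and 64.0 CPM and Rosa26-Lmo2+Aid-Cre 33.9 CPM, both within the WT range. Against Rosa26-Lmo2+Sca1-Cre, all Sca1-Lmo2 libraries were lower for both genes, with log2 fold changes of -2.07 ± 0.39 for S100a1 and -2.0 ± 0.39 for S100a13. S100a1 and S100a13 had r = 0.78 over 14 libraries. S100a1 had a higher r with S100a6 (0.89), and S100a13 was closest to Myl6 (0.96), Pet100 (0.95) and Cib1 (0.95) outside the 8.

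**Figure D3:**
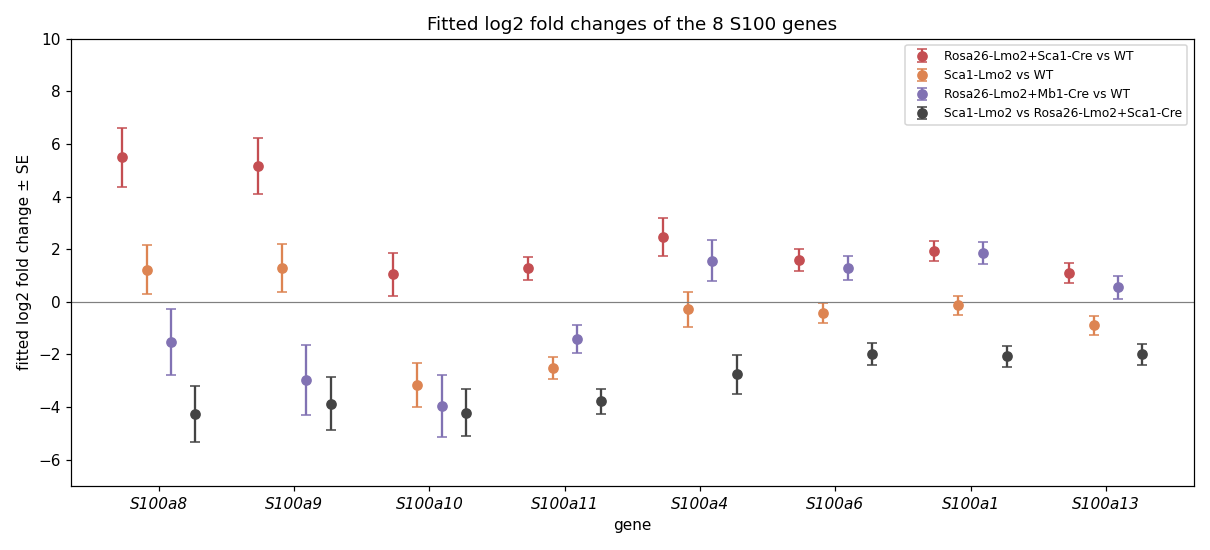
Points give the fitted log2 fold change of each of the 8 genes in 4 comparisons, with bars of 1 SE on either side. All 8 values are above 0 for Rosa26-Lmo2+Sca1-Cre vs WT (1.04 to 5.49) and all 8 are below 0 for Sca1-Lmo2 vs Rosa26-Lmo2+Sca1-Cre (-4.27 to -1.99), which share the Rosa26-Lmo2+Sca1-Cre libraries.

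Counted over the 8 genes, the median log2 fold change against WT was 1.76 for Rosa26-Lmo2+Sca1-Cre, -0.34 for Sca1-Lmo2 and -0.44 for Rosa26-Lmo2+Mb1-Cre, and that of Sca1-Lmo2 against Rosa26-Lmo2+Sca1-Cre was -3.28. The median over all genes was 0.06, 0.05, -0.01 and -0.01 in the same order. In Rosa26-Lmo2+Sca1-Cre vs WT, 6 of the 8 passed the threshold of an adjusted p of 0.05, all of them higher, beside 16.5% of all genes higher and 10.4% lower. The 6 were S100a1, S100a4, S100a6, S100a8, S100a9 and S100a11, and the count was 3 without Rosa26-Lmo2+Sca1-Cre replicate 1, without WT replicate 3 or without WT replicate 4. In Sca1-Lmo2 vs WT, S100a10 and S100a11 passed as lower (2 of 8, and 1 of 8 without WT replicate 1), beside 12.1% of all genes higher and 10.2% lower. In Rosa26-Lmo2+Mb1-Cre vs WT, S100a1 and S100a6 passed as higher and S100a10 as lower, beside 19.7% of all genes higher and 15.4% lower, and no member passed without Rosa26-Lmo2+Mb1-Cre replicate 2. In Sca1-Lmo2 vs Rosa26-Lmo2+Sca1-Cre all 8 passed as lower, beside 3.59% of all genes higher and 6.3% lower, and 2, 5 and 5 passed without Sca1-Lmo2 replicates 1, 2 and 3. Since the genes were chosen on these levels, nothing is read from these counts.

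Libraries that did not overlap were counted in the same way. In Rosa26-Lmo2+Sca1-Cre vs WT, 5 of 8 genes had all libraries of the model above WT (S100a1, S100a4, S100a6, S100a8 and S100a9), beside 17.7% of all genes above and 19.7% below. S100a10 and S100a11 lay below WT in every Sca1-Lmo2 library, beside 15.7% of all genes above and 16.9% below. In Rosa26-Lmo2+Mb1-Cre vs WT, S100a1 lay above and S100a9, S100a10 and S100a11 below, beside 30.9% of all genes above and 32.0% below. All Sca1-Lmo2 libraries lay below all Rosa26-Lmo2+Sca1-Cre libraries for 6 genes, the exceptions being S100a8 and S100a9, beside 9.66% of all genes above and 9.9% below. Scaling moved all genes together: without the TMM factors, the median over all genes was -0.33, -0.14, -0.46 and 0.19 in the 4 comparisons, and no member changed sign with that setting.

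For the order of the genes within a group, levels were divided by exon length, as CPM per kb of exon, with intron reads included in the counts. In WT, S100a10 was the highest of the 8 (126 CPM per kb), followed by S100a13 (63.9) and S100a11 (52.4), and S100a1 was the lowest (2.88). The WT ranges of S100a10 (74.3 to 197) and S100a13 (39.3 to 102) overlapped. In Sca1-Lmo2 the order opened with S100a13 (34.2) and S100a9 (30.0), whose ranges overlapped, and S100a10 stood at 13.9. S100a13 also led in Rosa26-Lmo2+Mb1-Cre (93.6) and led again in Rosa26-Lmo2+Aid-Cre (47.4), while S100a9 was the lowest of the 8 in Rosa26-Lmo2+Mb1-Cre (1.58). In Rosa26-Lmo2+Sca1-Cre, S100a9 (441), S100a8 (284) and S100a10 (259) had wide overlapping ranges.

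**Figure D4:**
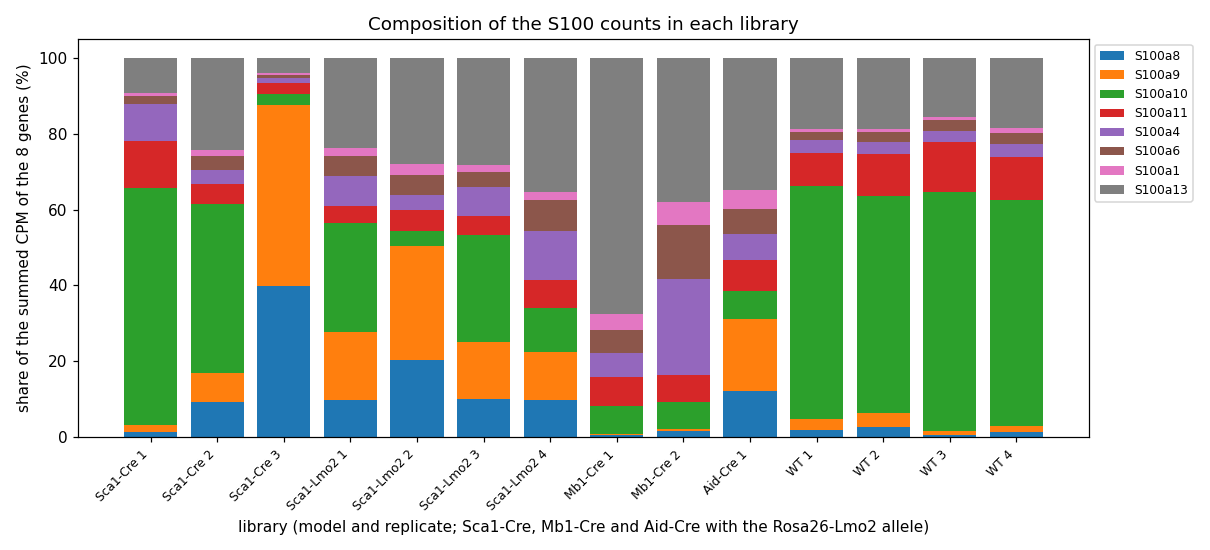
Stacked bars give the share of each gene in the summed CPM of the 8 genes, not divided by exon length, 1 bar per library. S100a10 makes up 57.3 to 63.1% in WT, and S100a8 with S100a9 make up 87.7% in Rosa26-Lmo2+Sca1-Cre replicate 3.

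The makeup of the S100 counts differed between single libraries of a model. These shares are of CPM not divided by exon length, so a longer gene such as S100a10 weighs more. In Sca1-Lmo2 replicate 3, S100a10 (35.77 CPM) had a larger share than S100a13 (35.59 CPM). Per kb of exon, the highest Sca1-Lmo2 values were 29.5 for S100a10 and 49.8 for S100a13. In Rosa26-Lmo2+Sca1-Cre, S100a10 held 62.5, 44.5 and 2.85% of the summed CPM of the 8 genes and S100a8 with S100a9 held 3.23, 16.9 and 87.7%, so that replicate 1 resembled WT in its shares (S100a10 57.3 to 63.1%) and replicate 3 did not. In Sca1-Lmo2, S100a10 held 3.75 to 28.8%. S100a13 was the largest share in both Rosa26-Lmo2+Mb1-Cre libraries (67.4 and 38.0%) and in Rosa26-Lmo2+Aid-Cre (34.7%). The summed level was 1016, 602.5 and 1308 CPM in Rosa26-Lmo2+Sca1-Cre, 70.9 to 126 CPM for Sca1-Lmo2, 103.5 and 169 CPM for Rosa26-Lmo2+Mb1-Cre and 97.7 CPM for Rosa26-Lmo2+Aid-Cre, against 151 to 388 CPM in WT.

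Over the 14 libraries, correlations between members are given for 2 sets, as a description since the libraries share groups and composition. S100a8 and S100a9 had r between 0.07 and 0.33 with the other 6. Those 6 had r between 0.18 and 0.91 among themselves, the lowest being S100a1 with S100a10 (0.18) and the highest S100a4 with S100a6 (0.91). The 2 ranges thus overlapped. Within the 10 tumour libraries alone they did not, the lowest r among the 6 being 0.54 (S100a1 with S100a10). The highest r of S100a8 or S100a9 with any of the 6 was 0.43 there (S100a8 with S100a11).

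**Figure D5:**
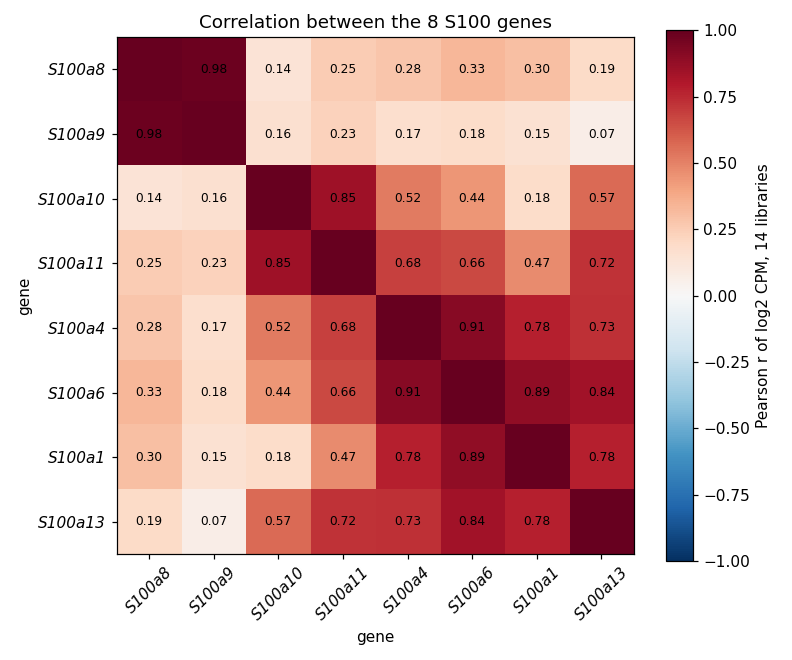
Each cell gives Pearson's r of log2 CPM between 2 of the 8 genes over 14 libraries, on a colour scale from -1 to 1. S100a8 and S100a9 have 0.98 with each other and 0.07 to 0.33 with the other 6 genes, whose pairs range from 0.18 to 0.91.

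The remaining S100 genes of the table were low. There were 9 of them (S100a2, S100a3, S100a5, S100a7a, S100a14, S100a16, S100b, S100g and S100z), with at most 3.78 CPM and 154 counts in any library, and S100a3, S100a14 and S100a16 passed the filter. S100a16 fell in Sca1-Lmo2, at 0 to 0.166 CPM, against 0.398 to 1.43 CPM in WT (log2 fold change -3.40 ± 1.03, adjusted p = 0.0338), and the call was lost in 7 of 14 alternatives (adjusted p 0.00504 to 0.0860). Within 250 kb of a member lie 64 other genes, of which 13 passed the filter, S100a16 included. In Rosa26-Lmo2+Sca1-Cre vs WT 1 of these rose (Gm42674, which overlaps S100a4) and 2 fell, Dennd4b (-1.29 ± 0.22, adjusted p = 0.00492) and Crtc2 (-0.72 ± 0.22, adjusted p = 0.0344). Dennd4b and Crtc2 also fell in Sca1-Lmo2 (-0.86, adjusted p = 0.0115, and -0.78, adjusted p = 0.0197) and in Rosa26-Lmo2+Mb1-Cre (-1.81, adjusted p = 0.00147, and -1.02, adjusted p = 0.0124). The Crtc2 call held in 8 of 14 alternatives in Rosa26-Lmo2+Sca1-Cre (adjusted p 0.0137 to 0.119) and in 10 of 16 in Sca1-Lmo2 (0.00291 to 0.0587), whereas the Dennd4b call held in all of both. Neighbours of the cluster thus did not all take the direction of the S100 genes. The median of the 13 was 0.36 in Rosa26-Lmo2+Sca1-Cre vs WT, beside 1.76 for the 8 members.

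Partners and receptors of S100 proteins formed a list of 25 genes, of which 21 passed the filter. In Rosa26-Lmo2+Sca1-Cre vs WT 2 of 21 rose, Anxa1 (annexin A1, the partner of S100a11) and Tlr4, and 3 fell, Cd69, S100pbp and Anxa5, beside 16.5% of all genes that rose and 10.4% that fell (3 genes were called without WT replicate 1, 3 or 4). The Anxa5 call (-1.19 ± 0.40, adjusted p = 0.0453) held in 6 of 14 alternatives, with adjusted p between 0.0128 and 0.148, whereas those of Cd69 and S100pbp held in all 14. Anxa1 was at 4.83, 8.82 and 50.5 CPM in Rosa26-Lmo2+Sca1-Cre, against 2.52, 2.01, 2.24 and 1.53 CPM in WT (log2 fold change 3.37 ± 0.67, adjusted p = 0.00803). All 3 libraries lay above WT, and the highest was replicate 3, as for S100a8. Over 14 alternatives the log2 fold change was 1.72 to 3.84 with adjusted p between 5.12e-06 and 0.0509, the call being lost without Rosa26-Lmo2+Sca1-Cre replicate 3. Tlr4, a receptor of calprotectin, was at 0.904, 3.54 and 4.54 CPM, against 0.641, 0.477, 1.1 and 0.89 CPM in WT (1.94 ± 0.60, adjusted p = 0.0327). Its call was lost in 8 of 14 alternatives, with adjusted p between 0.00766 and 0.116. Both Rosa26-Lmo2+Mb1-Cre libraries were also above all of WT, with Anxa1 at 5.05 and 11.4 CPM and Tlr4 at 1.58 and 4.8 CPM. The log2 fold changes there were 1.98 for Anxa1 and 2.03 for Tlr4, and 1.28 and 1.02 without replicate 2. Rosa26-Lmo2+Aid-Cre held 11.8 CPM of Anxa1 and 4.15 CPM of Tlr4, whereas Sca1-Lmo2 overlapped WT for both.

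Anxa2, the partner of S100a10, was at 149, 152, 186 and 148 CPM in Sca1-Lmo2 and at 69.2, 322 and 87.5 CPM in Rosa26-Lmo2+Sca1-Cre, against 323, 417, 315 and 251 CPM in WT. The log2 fold changes of -1.04 ± 0.46 (adjusted p = 0.12) and -1.03 ± 0.50 (adjusted p = 0.136) did not pass the threshold, although every Sca1-Lmo2 library was below every WT library, as for S100a10. The replicate with the most S100a10, Rosa26-Lmo2+Sca1-Cre replicate 1 (635 CPM), thus had the least Anxa2 (69.2 CPM). In Rosa26-Lmo2+Mb1-Cre Anxa2 was at 359 and 119 CPM (-0.45 ± 0.56, adjusted p = 0.554), and in Rosa26-Lmo2+Aid-Cre at 73.8 CPM. No difference between Anxa2 and S100a10 was tested.

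In Sca1-Lmo2 vs WT 1 of the 21 rose and 3 fell, beside 12.1% of all genes that rose and 10.2% that fell. Ryr1, a calcium channel that S100a1 binds in muscle, rose to between 3.67 and 19.3 CPM, against 0.928 to 1.95 CPM in WT (2.83 ± 0.51, adjusted p = 0.0037). Cd69, an activation antigen of T cells that can bind calprotectin in humans, fell in all 3 models tested, to 13.2 to 21.1 CPM in Rosa26-Lmo2+Sca1-Cre (-2.28 ± 0.36, adjusted p = 0.00361), 6.1 to 22.2 in Sca1-Lmo2 (-2.63 ± 0.33, adjusted p = 0.000676) and 2.79 to 3.22 in Rosa26-Lmo2+Mb1-Cre (-4.79 ± 0.50, adjusted p = 0.000414), against 71.1 to 95.2 CPM in WT. S100pbp, which encodes an S100P-binding protein in humans, fell in the same 3 comparisons (-1.15, -0.82 and -1.05, adjusted p = 0.00536, 0.00939 and 0.00675). In Rosa26-Lmo2+Mb1-Cre vs WT 7 of the 21 rose and 5 fell, beside 19.7% of all genes that rose and 15.4% that fell, with Ryr1 (3.40 ± 0.57, adjusted p = 0.00201) and Sugt1 (1.69 ± 0.40, adjusted p = 0.00902) among the 7. That count of 12 became 2 without Rosa26-Lmo2+Mb1-Cre replicate 2 and 5 without WT replicate 3 or 4. In Sca1-Lmo2 vs Rosa26-Lmo2+Sca1-Cre, Anxa1 (-2.71 ± 0.66, adjusted p = 0.0281), Tlr4 (-2.46 ± 0.61, adjusted p = 0.0285) and Cd36 (-2.06 ± 0.58, adjusted p = 0.0432) fell. Of these 3 calls none was left without Sca1-Lmo2 replicate 1 or 3, and 1 was left without Sca1-Lmo2 replicate 2 or Rosa26-Lmo2+Sca1-Cre replicate 2.

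Summed monocyte and macrophage markers and most of the 8 genes were higher in replicate 2 of Rosa26-Lmo2+Mb1-Cre than in replicate 1. The summed level of 18 markers was 450 CPM in replicate 1 and 1740 CPM in replicate 2. S100a4 was 6.65-fold higher in replicate 2, S100a8 5.57-fold, S100a6 3.74-fold, S100a9 2.95-fold and S100a1 2.35-fold. S100a10 was 1.57-fold and S100a11 1.49-fold higher, and S100a13 was not higher (69.8 and 64.0 CPM). Of the 18 markers, 10 rose and 1 fell in Rosa26-Lmo2+Mb1-Cre vs WT (1 and 1 without replicate 2), Lyz2 being at 186 and 704 CPM, against 51.7 to 121 CPM in WT (2.24 ± 0.49, adjusted p = 0.0062). Over all genes 19.7% rose and 15.4% fell in this comparison. The same sum was 760, 907 and 527 CPM in Rosa26-Lmo2+Sca1-Cre, 253 to 322 CPM for Sca1-Lmo2 and 708 CPM for Rosa26-Lmo2+Aid-Cre, against 326 to 524 CPM in WT, and in Rosa26-Lmo2+Sca1-Cre 4 of 18 rose and 1 fell (2 rose without Rosa26-Lmo2+Sca1-Cre replicate 1 and without WT replicate 2, 3 or 4). The part of macrophages in the S100 values was not tested. Of 15 genes of effector and memory T cells, 2 rose and 1 fell in Rosa26-Lmo2+Sca1-Cre vs WT, beside 16.5% of all genes that rose and 10.4% that fell. The median log2 fold change of the list was 0.27, against 0.06 over all genes. Crip1, a LIM-domain protein of such cells, rose to between 477 and 2580 CPM, against 94.5 to 233 CPM in WT (3.36 ± 0.62, adjusted p = 0.0061), and Lgals3, which macrophages also express, rose to between 29.2 and 114 CPM, against 9.45 to 22.1 CPM in WT (2.11 ± 0.64, adjusted p = 0.0316). The Lgals3 call held in 8 of 14 alternatives, with adjusted p between 0.00436 and 0.16. In Sca1-Lmo2 2 of the 15 rose and 3 fell, among them Il18r1 (-3.26 ± 0.57, adjusted p = 0.00328). Over all genes 12.1% rose and 10.2% fell in that comparison.

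Markers of the other cell types of a thymus were read in the same way. Over all genes, 16.5% rose and 10.4% fell in Rosa26-Lmo2+Sca1-Cre vs WT. The shares were 12.1% and 10.2% in Sca1-Lmo2 vs WT, and 19.7% and 15.4% in Rosa26-Lmo2+Mb1-Cre vs WT. Of 9 stromal and endothelial markers tested, 6 rose and 1 fell in Rosa26-Lmo2+Sca1-Cre vs WT. In Sca1-Lmo2 3 rose, and in Rosa26-Lmo2+Mb1-Cre 5 rose and 1 fell. The matrix protein gene Mgp was at 6.35 to 23.3 CPM in Rosa26-Lmo2+Sca1-Cre, against 0.435 to 0.719 CPM in WT (4.51 ± 0.51, adjusted p = 0.000994). Its log2 fold change was -0.83 in Sca1-Lmo2 and 2.69 in Rosa26-Lmo2+Mb1-Cre. The sum of 14 such markers was 152 to 197 CPM in Rosa26-Lmo2+Sca1-Cre, 143 to 323 in Sca1-Lmo2 and 107 to 116 in Rosa26-Lmo2+Mb1-Cre, against 121 to 129 in WT. Of 9 thymic epithelial markers tested, 7 fell in Sca1-Lmo2, 3 in Rosa26-Lmo2+Sca1-Cre and 1 in Rosa26-Lmo2+Mb1-Cre, and Prss16, a protease of cortical epithelium, fell in all 3. Prss16 was at 0.48 to 0.739 CPM in Rosa26-Lmo2+Sca1-Cre and 0 to 0.162 CPM in Sca1-Lmo2, against 11.9 to 26.6 CPM in WT (-5.24 ± 0.71, adjusted p = 0.00205, and -7.79 ± 0.72, adjusted p = 0.000179). Of 8 B cell markers, 5 fell in Rosa26-Lmo2+Mb1-Cre, 2 in Sca1-Lmo2 and 1 in Rosa26-Lmo2+Sca1-Cre. Of 12 thymocyte markers, 7 fell and 1 rose in Rosa26-Lmo2+Sca1-Cre, 3 fell and 1 rose in Sca1-Lmo2 and 3 fell in Rosa26-Lmo2+Mb1-Cre. S100a10 and S100a11 were lower in Sca1-Lmo2 together with most of the thymic epithelial markers and with part of the thymocyte markers. In Rosa26-Lmo2+Mb1-Cre S100a10 was also lower (log2 fold change -3.95 ± 1.18), with 1 of the 9 epithelial markers called lower. The summed level of 12 epithelial markers was 38.85 and 32.08 CPM there and 24.3 to 50.5 CPM in Sca1-Lmo2, against 76.1 to 107 CPM in WT. In Rosa26-Lmo2+Sca1-Cre replicates 1, 2 and 3 this sum was 108, 47.3 and 33.3 CPM. S100a10 was at 635, 268 and 37.3 CPM in the same libraries, and S100a11 at 125, 32.8 and 36.1 CPM. In Rosa26-Lmo2+Sca1-Cre 3 epithelial and 7 thymocyte markers fell, while S100a10 and S100a11 were at 1.04 ± 0.83 and 1.28 ± 0.44. The part of a changed cell makeup in these values was not tested.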

How the data were processed

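RNA was taken from flash-frozen thymus per the labels, or from blast cells and healthy thymus per the study's methods, and sequenced as read pairs from non-stranded libraries. The authors deposited 1 table of raw counts per gene, made per the labels and methods with bcl2fastq, TopHat2 2.1.0 on mm10 and bamsignals over whole gene spans, introns included, so that reads of overlapping genes are counted for each of them. Repeated lines were dropped, which left 46946 of 46948. The 17087 genes that reached 1 CPM in 3 or more of the 14 libraries were tested with edgeR 4.0.16 (R 4.3.3), by its quasi-likelihood test with TMM factors on all 5 groups together, with Benjamini-Hochberg adjusted p of 0.05 as the threshold over all tested genes. The SE is the log2 fold change over the root of F. Likeness between genes is Pearson's r of log2 CPM (prior count 2). Alternatives used DESeq2 1.42.0, other scalings, filters and samples. The 14 libraries were taken as 14 animals; where they are not, p-values cover technical spread only. The named genes are the 8 members, Lmo2, up to 4 called genes of each list and of the neighbours within 250 kb with the smallest adjusted p in a comparison, Anxa1, Anxa2 and Tlr4 in any case, and the 3 genes closest to each member, some left out for length. The members and gene lists were chosen with earlier results of these data known. Leaving out the 4 mitochondrial copies, leaving replicate 3 of Rosa26-Lmo2+Sca1-Cre out of the likeness and counting markers by setting were added after seeing the data.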

Additional observations from a re-analysis of the deposited data

Results flagged for a closer look

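S100a1 in WT replicate 1 was at 2.88 CPM, against 1.69 to 1.74 CPM in the other 3 WT libraries, a gap of 0.94 of the range of the group in log2 CPM. It was 1 of 16 groups of 4 libraries looked at in this way, and chance alone gives about 1 in 20. S100a9 took opposite directions in a pair of models that share the WT libraries, with all Rosa26-Lmo2+Sca1-Cre libraries above WT (log2 fold change 5.17) and all Rosa26-Lmo2+Mb1-Cre libraries below WT (-2.97). The difference between the models was not tested.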

How the results depend on the processing

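Direction held for the members in all but 3 cases: S100a1 (0.09) and S100a4 (0.05) in Sca1-Lmo2 vs WT without WT replicate 1, and S100a4 in Rosa26-Lmo2+Mb1-Cre vs WT (-0.36) without its replicate 2. Of 456 alternative values of the members 440 moved by less than the spread between replicates. Counts follow for Rosa26-Lmo2+Sca1-Cre vs WT, for Sca1-Lmo2 vs WT, for Rosa26-Lmo2+Mb1-Cre vs WT and for Sca1-Lmo2 vs Rosa26-Lmo2+Sca1-Cre, in this order. Genes called numbered 4589, 3815, 6001 and 1690, and leaving out each library in turn gave 1969 to 4959, 2223 to 3840, 1598 to 5471 and 341 to 2129. The same gave 3 to 7, 1 to 2, 0 to 3 and 2 to 8 members, and 3 to 6, 4 to 5, 2 to 10 and 0 to 4 listed partners. Same-numbered libraries deviated from their group means with r between -0.399 and 0.17, above 0.1 in 4 of 16 pairs. Libraries with different numbers were not set beside them, so this does not tell whether the numbers pair the samples. With the replicate block the genes called were 1363, 2526, 3187 and 8, the members called 1, 2, 0 and 0, and the partners called 2, 4, 4 and 0. Summing Sca1-Lmo2 replicates 1 and 3 gave 2540 genes against WT, and 776 genes, 5 members and 0 partners against Rosa26-Lmo2+Sca1-Cre. DESeq2 called 9 partners in Rosa26-Lmo2+Sca1-Cre vs WT, 5 members in Rosa26-Lmo2+Mb1-Cre vs WT, and 3603 genes and 6 partners in the last comparison. DESeq2 also called 8 neutrophil markers as higher in Sca1-Lmo2 vs WT, against 3 with edgeR (0 without WT replicate 1, 3 or 4, and 1 to 2 without any 1 Sca1-Lmo2 library), and 8 monocyte markers in Rosa26-Lmo2+Sca1-Cre vs WT, against 4. Fitting only the 2 groups gave 7 partners in Sca1-Lmo2 vs WT, 5 members in Rosa26-Lmo2+Mb1-Cre vs WT, and 9 genes, 0 members and 0 partners in the last comparison. With no filter on low counts the last comparison had 3902 genes and 6 partners. The cause of these shifts was not tested. In Rosa26-Lmo2+Mb1-Cre, S100a8 and S100a9 rest on 18 to 86 counts, and their CPM differed between the 2 libraries with a CV of 98.3% and 69.8%.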

Other observations

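S100z, an S100 gene outside the cluster on chromosome 3, had 154 counts (3.21 CPM) in the Rosa26-Lmo2+Aid-Cre library and 52 counts (1.05 CPM) in Sca1-Lmo2 replicate 2. The other Sca1-Lmo2 libraries had 0 to 7 counts, those of Rosa26-Lmo2+Mb1-Cre 16 and 2, and those of Rosa26-Lmo2+Sca1-Cre 0 to 4, against 0 counts in each of the 4 WT libraries. It did not pass the filter on low counts and was singled out after its values were seen.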
